A study of Mus musculus with 6 samples.

Results

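The *Penk* and *Aspn* periosteal-like stromal cells were single-cell barcodes of the mouse fracture callus that carried UMIs of *Penk* or *Megf6* together with *Aspn* or *Ogn* and stayed under set limits for genes of several other cell types. A UMI is 1 counted transcript molecule. A barcode was a member if it held at least 3000 UMIs, at most 10% of them mitochondrial, at least 3 UMIs of *Penk* plus *Megf6* and at least 10 of *Aspn* plus *Ogn*. It also had to hold 0 UMIs of *Pi16*, under 5 of the tendon genes *Tnmd*, *Thbs4* and *Kera*, under 3 of the osteoblast gene *Ifitm5*, under 2 of the cell cycle genes *Top2a* and *Mki67*, and at most 1 each of the immune gene *Ptprc* and the endothelial gene *Cdh5*. The cartilage genes *Ucma*, *Cnmd*, *Matn3* and *Scrg1* had to stay under 0.2% of its UMIs. The members were thus chosen by the UMI counts of these 17 genes, whose levels are described without a test. There were 549 members among 46944 barcodes, or 1.79% of the 30589 barcodes that passed the filters on UMIs and mitochondrial share.

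The calluses came from femoral fractures at 14 days post-fracture (dpf) in mice 12 weeks old, with 3 libraries per group. The methods describe the control mice as Piezo1f/f, carrying floxed *Piezo1* alleles without Cre, whereas the genotype label calls them wild type. The knockout mice were Col2a1CreERT2; Piezo1f/f, in which a tamoxifen-inducible Cre is driven by *Col2a1*, the gene of cartilage collagen, and their genotype label spells the target gene as Piezo3. Tamoxifen (75 mg/kg, once a day for 5 days, starting at 5 dpf) was given to controls and knockouts alike. Whether Cre was active in the stromal cells described here was not tested. No label ties the libraries to separate mice, and the numbers of mice given in the study's text differ between its sections, so the p-values measure the spread between libraries.

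The periosteum is the fibrous sheath on the outer face of bone, and its inner layer supplies much of the cartilage and bone of a fracture callus. *Aspn* (asporin) and *Ogn* (osteoglycin) encode small leucine-rich proteoglycans, secreted proteins that bind collagen fibrils and growth factors. *Penk* encodes proenkephalin, the precursor of the enkephalin opioid peptides, which fibroblasts also transcribe. *Megf6* encodes a secreted protein with many EGF-like domains, and *Fbn2* encodes fibrillin-2, a microfibril protein that is mostly made during development and repair.

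*Aspn* and *Ogn* share a locus of the GRCm38 genome, and the other markers lie apart. *Penk* lies at chr4:4133531-4138819 on the minus strand and *Megf6* at chr4:154170730-154275713 on the plus strand. *Aspn*, at chr13:49544443-49567565, and *Ogn*, at chr13:49608046-49624501, are neighbours on the plus strand with *Omd* (osteomodulin) between them and *Ecm2* before them. These 4 proteoglycan-family genes span 119692 bases, and all lie inside the gene *Cenpp*, which runs on the opposite strand. The 250 bases before the RefSeq start of *Aspn* (chr13:49544193-49544442) and of *Ogn* (chr13:49607765-49608014), which for *Ogn* lies before the GENCODE start given above, are shown because the rule counts both genes jointly. Neither stretch touches an exon of *Cenpp*. The sequences are from RefSeq (GRCm38.p6), plus strand, and capitals mark each match to TATAAA or its reverse complement TTTATA.
Aspn: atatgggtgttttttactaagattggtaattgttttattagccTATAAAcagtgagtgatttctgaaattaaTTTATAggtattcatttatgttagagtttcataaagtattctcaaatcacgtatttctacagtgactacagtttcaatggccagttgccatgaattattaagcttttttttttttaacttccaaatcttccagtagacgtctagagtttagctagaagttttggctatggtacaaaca
Ogn: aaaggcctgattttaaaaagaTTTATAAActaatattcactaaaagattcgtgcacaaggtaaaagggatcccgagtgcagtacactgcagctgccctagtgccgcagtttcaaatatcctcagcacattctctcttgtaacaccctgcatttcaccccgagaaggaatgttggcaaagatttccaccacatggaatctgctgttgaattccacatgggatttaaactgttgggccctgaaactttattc
Each stretch held 2 matches, which overlap each other in *Ogn*, and 12.4% of the 32851 promoter windows of this length hold at least 1. *Megf6* has an entry in the same table and *Penk* does not.

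Several libraries stood apart before any comparison. Replicate 1 of both groups was the deepest per member, with a median of 29240 UMIs per member in control 1 and 41835 in knockout 1, against 11204 to 14494 in the other 4 libraries. Knockout 3 held 1196 UMIs of *Xist* and 0 of the Y-linked *Ddx3y* in its members, whereas the members of the other 5 libraries held at most 1 *Xist* UMI and had *Ddx3y* at 40.5 to 104 CPM, the UMIs of a gene scaled to a common library total of 1e6. These values go against the male mice of the methods, so the share of members, the count of called genes and the fold changes of *Omd* and *Apoe* are also given without knockout 3. Knockout 2 had little *Col2a1*, at 10.9 CPM in its members against 896 CPM or more in those of the other libraries. Of 46722 barcode sequences, 222 occurred in more than 1 library, and 2 members shared their sequence with a barcode of another library. Total depth was 57626530 to 103784364 UMIs per library.

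The number of members was 116, 102 and 108 in control 1 to 3 and 61, 50 and 112 in knockout 1 to 3. Most of them had entered through *Megf6*. In all, 318 members (57.9%) had at least 3 *Megf6* and under 3 *Penk* UMIs, 116 (21.1%) had at least 3 *Penk* and under 3 *Megf6* UMIs, 77 had at least 3 of each, and 38 reached the minimum only through the sum. *Penk* had 0 UMIs in 75.4% of the members of knockout 1 and in 24.0% of those of knockout 2. Most members therefore had under 3 *Penk* UMIs, which the name of the cells does not convey, whereas *Aspn* was found in all but 1 member. At the edge of the rule, 121 members had exactly 3 UMIs of *Penk* plus *Megf6*, while 178 barcodes met every other condition with 2.

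**Figure D1:**
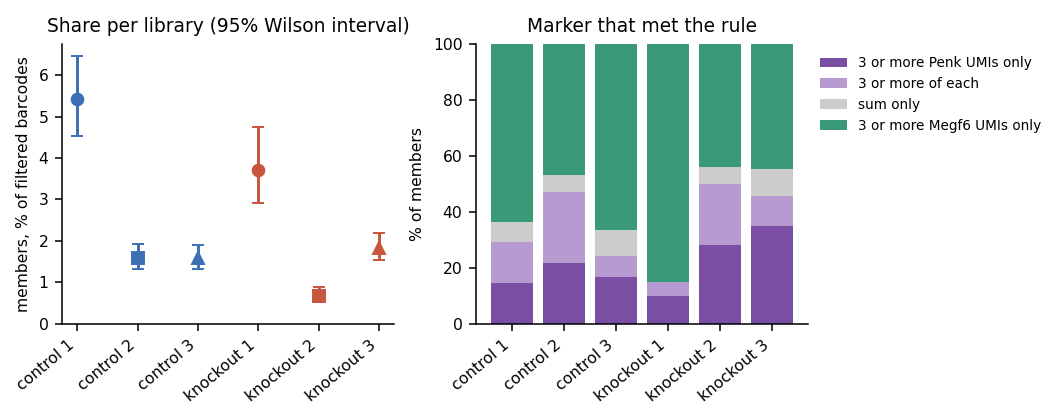
Left, members as percent of filtered barcodes (y axis) in each library, with 95% Wilson intervals that cover counting error only. Right, percent of each library's members by the marker that met the rule. Control 1 and knockout 1 have the highest shares, and *Megf6*-only members are the largest class in every library.

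The levels of the marker genes were read from UMIs summed over the members of a library and scaled to CPM. *Penk* was at 126, 488 and 212 CPM in control 1 to 3 and at 20.4, 678 and 452 CPM in knockout 1 to 3. It was the most uneven marker, and a single member held 26.2% of its UMIs in knockout 3. *Megf6* was at 230, 265 and 291 CPM in the control libraries and at 182, 256 and 189 CPM in the knockout libraries. *Aspn* reached 3666, 3205 and 2876 CPM and 2878, 2287 and 2411 CPM. *Ogn* reached 1137, 1421 and 984 CPM and 788, 1594 and 976 CPM. *Fbn2*, which the rule did not use, was at 301, 359 and 424 CPM in the control libraries and at 434, 356 and 181 CPM in the knockout libraries. All 5 markers overlapped between the groups.

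The members were set beside 3 other stromal gates of the same libraries, in which the same limits on cell cycle, immune and endothelial genes held. These were 210 *Pi16* fibroblasts with at least 2 UMIs of *Pi16* and 3 of *Clec3b*, 1303 tendon-like cells with at least 10 UMIs of *Tnmd*, *Thbs4* and *Kera*, and 691 osteoprogenitors with at least 5 UMIs of *Wif1*, *Kcnk2* and *Gdpd2*. Control 3 had 3 *Pi16* fibroblasts and gave no value for that gate, and knockout 2 had 11 tendon-like cells. The rule sets no limit on *Wif1*, *Kcnk2* and *Gdpd2*, and 12, 0 and 4 members of control 1 to 3 and 4, 1 and 5 of knockout 1 to 3 also held at least 5 UMIs of them. They were counted as members and not as osteoprogenitors. Gates differ by construction, so these differences are descriptions without a test. They are medians over libraries of the within-library difference in log2(CPM + 5), over genes with a mean of at least 50 CPM in the members. Of 3228 such genes, 426 (13.2%) were above and 157 (4.86%) below the mean of the 3 gates in every library compared. The minimum of 50 CPM left out genes that were low in the members. The share of higher genes is therefore not set against that of lower genes, here or for single gates. Against *Pi16* fibroblasts 17.2% were higher and 13.6% lower in every library compared, and against osteoprogenitors 17.1% and 7.34%. Against tendon-like cells the shares were 9.76% and 5.42%. The gates are not ranked by these shares, since *Pi16* fibroblasts were compared without control 3 and knockout 2 had few tendon-like cells.

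*Fbn2* was the 1 of the 5 markers that the rule did not use. It was 2.34 higher on the log2 scale than in osteoprogenitors and 0.70 higher than in *Pi16* fibroblasts, but it was lower than in tendon-like cells (log2 difference -0.19). The levels of the other 4 markers were set by the rule. Of these, *Aspn* and *Ogn* differed from tendon-like cells by 0.02 and -0.17, and *Megf6* from the mean of the other gates by 2.67. *Penk* was lower in the members than in tendon-like cells in control 1 (126 against 227 CPM) and knockout 1 (20.4 against 68.5 CPM), and lower than in *Pi16* fibroblasts in the same libraries. In immune and endothelial barcodes, which served as background, *Megf6* was at 0.891 to 18.4 CPM, *Penk* at 1.92 to 13.1 CPM, *Aspn* at 8.44 to 191 CPM and *Ogn* at 4.78 to 95.7 CPM. *Aspn* UMIs were found in 67.8% of the immune barcodes of control 1, at a median of 16767 UMIs per barcode, so a single *Aspn* UMI does not set a member apart.

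**Figure D2:**
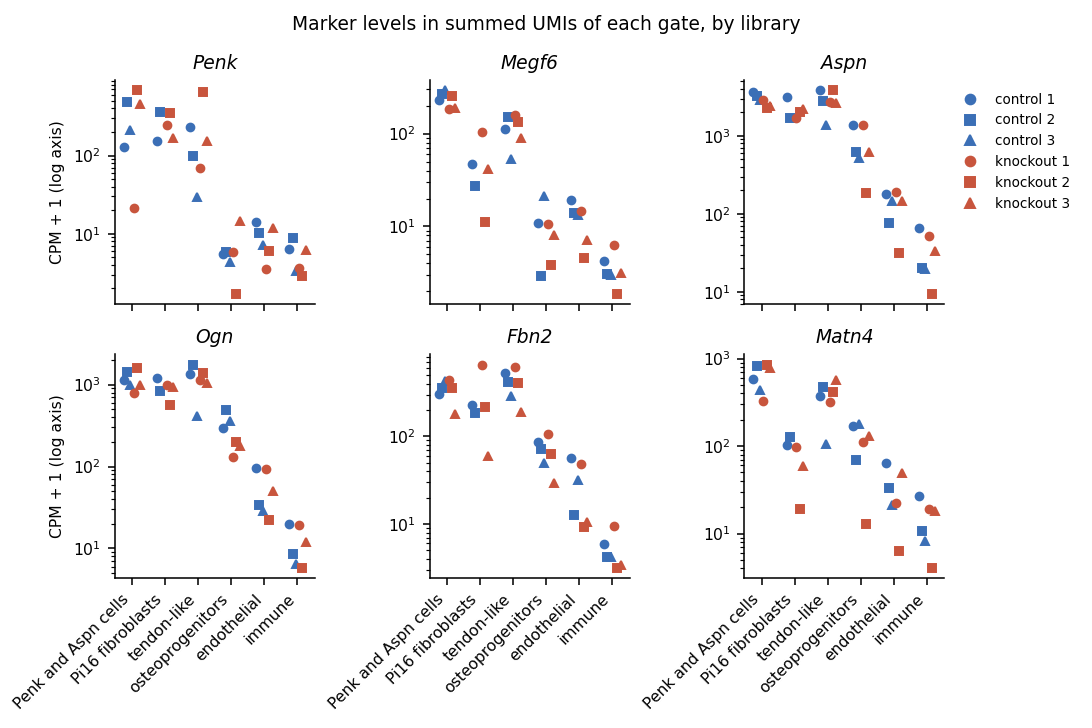
Summed UMIs per gate as CPM + 1 on a log axis, for the 5 marker genes and *Matn4*, 1 point per library. *Aspn*, *Ogn* and *Fbn2* are similar in tendon-like cells and in the members, while *Megf6* and *Matn4* are higher in the members.

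The label periosteal-like was checked against 20 genes of periosteal progenitors. *Postn* (periostin), a matrix protein abundant in the periosteum, was the highest of them at 3827, 1941 and 3908 CPM in the control libraries and 4087, 1138 and 1416 CPM in the knockout libraries. Of the 14 genes with at least 50 CPM, 11 were above the mean of the other gates, but 7 of 14 were above tendon-like cells and 6 of 14 above *Pi16* fibroblasts. *Ly6a* and *Thy1*, surface markers of fibroblast progenitors, were lower than in *Pi16* fibroblasts by log2 differences of -3.41 and -1.20. *Gli1*, a hedgehog target that marks skeletal progenitors, was at 17.2 to 41.2 CPM in the members, and *Lepr*, the leptin receptor of marrow stroma, at 1.48 to 15.6 CPM. The periosteal list thus did not set the members apart from the tendon-like cells.

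The members were matrix-producing cells by their most abundant transcripts. *Col1a1* and *Col1a2*, the chains of type I collagen, averaged 26258 and 22440 CPM, *Sparc* 16907 CPM, *Col3a1* 13245 CPM and *Fn1* (fibronectin) 5513 CPM. Among the small leucine-rich proteoglycans the most abundant was *Bgn* (biglycan) at 3797 CPM, and 6, 3 and 6 of the 9 genes compared were above *Pi16* fibroblasts, tendon-like cells and osteoprogenitors. *Lum* (lumican) was above all 3 gates, with log2 differences of 0.68, 0.58 and 0.74 from *Pi16* fibroblasts, tendon-like cells and osteoprogenitors. *Dcn* (decorin) was below *Pi16* fibroblasts by -0.98 and below tendon-like cells by -0.57. Of 19 collagen genes compared, 9 were above the mean of the other gates in every library, beside the 13.2% of all genes compared. By gate, 15 of the 19 were above osteoprogenitors, 9 above *Pi16* fibroblasts and 6 above tendon-like cells. *Col12a1*, a fibril-associated collagen, and *Col11a1*, a minor fibrillar collagen, were among them, at 1.01 and 0.86. *Col5a3* and the basement membrane chains *Col4a1* and *Col4a2* went the other way, at -1.61, -1.37 and -1.04.

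The elastic fibre and microfibril genes split the gates. Of 18 compared, 17 were above osteoprogenitors, but 5 were above *Pi16* fibroblasts and 2 above tendon-like cells. *Fbn1* (fibrillin-1) and *Mfap5*, both microfibril components, were below *Pi16* fibroblasts by -2.26 and -3.31. *Eln* (elastin) was at 9.64 to 40.5 CPM in the members and averaged 689 CPM in *Pi16* fibroblasts.

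The 20 genes outside the rule with the highest median difference from the mean of the other gates are described by what they encode, beginning with matrix and matricellular genes. *Matn4* (matrilin-4), an adaptor of the pericellular matrix, was at 583, 818 and 438 CPM in the control libraries and 328, 850 and 774 CPM in the knockout libraries, 1.93 above the mean of the gates. *Thbs2* (thrombospondin-2) was at 1666, 1625 and 1717 CPM and 1477, 1028 and 874 CPM, 1.57 above. *Tnn* (tenascin-W), a glycoprotein of bone-forming periosteum, ranged from 181 CPM in knockout 2 to 1289 CPM in knockout 1. *Fndc1*, *Adamtsl1*, *Itgbl1* and *Col8a2* followed at 1.31, 1.26, 1.16 and 1.13. Most of these matrix genes were close to tendon-like cells, with *Thbs2* at 0.20 and *Tnn* at 0.13 against that gate, and far from osteoprogenitors, with *Thbs2* at 2.81.

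Other genes among the 20 encode membrane enzymes, receptors and transporters. *Alpl*, the tissue-nonspecific alkaline phosphatase of mineralizing cells, was at 1162, 517 and 680 CPM in the members of the control libraries and 1145, 677 and 1026 CPM in those of the knockout libraries. In each of the 6 libraries *Alpl* was higher in the members than in tendon-like cells (117 to 832 CPM) and lower than in osteoprogenitors (1029 to 1824 CPM). *Fgfr2*, a fibroblast growth factor receptor needed for skeletal growth, was 3.18 above *Pi16* fibroblasts and 1.29 above tendon-like cells. Against osteoprogenitors it was higher in 3 of 6 libraries and lower in the other 3. *Mme* (neprilysin), a membrane peptidase that cleaves enkephalins, was 1.63 and 1.67 above the first 2 gates and higher than in osteoprogenitors in 4 of 6 libraries. *Slc40a1* (ferroportin), the cellular iron exporter, *Cd59a*, a complement regulator, and *Kcnj15*, a potassium channel, were 1.39, 1.36 and 1.19 above the mean of the gates.

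The remaining genes were secreted factors and growth-related transcripts. *Ndnf*, *Sfrp2* (a secreted WNT binder) and *C1qtnf3* were 1.57, 1.31 and 1.22 above the mean of the gates, but *C1qtnf3* was lower than in tendon-like cells in 5 of 6 libraries. *Sfrp2* averaged 9.54 CPM in osteoprogenitors. Against *Pi16* fibroblasts its median log2 difference was -0.83, but it was higher in the members of control 2 (0.54) and knockout 3 (0.25). *H19*, an imprinted noncoding RNA, had the highest difference of the 20 at 1.97, with 870, 1258 and 515 CPM in the control libraries and 321, 805 and 585 CPM in the knockout libraries. The difference was 2.88 against osteoprogenitors and 0.32 against *Pi16* fibroblasts, and knockout 1 was below both *Pi16* fibroblasts and tendon-like cells. Its imprinted neighbour *Igf2* stayed at 0.584 to 5.27 CPM. *Peg3*, another imprinted gene, was 1.31 above, *Cdkn2a* (the cell cycle inhibitor locus of p16 and p19) 1.41 and *Acta2* (smooth muscle actin) 1.13. *Acta2* exceeded the mean of the gates in 4 of 6 libraries, *C1qtnf3* in 5 and the other 18 genes in all 6.

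**Figure D3:**
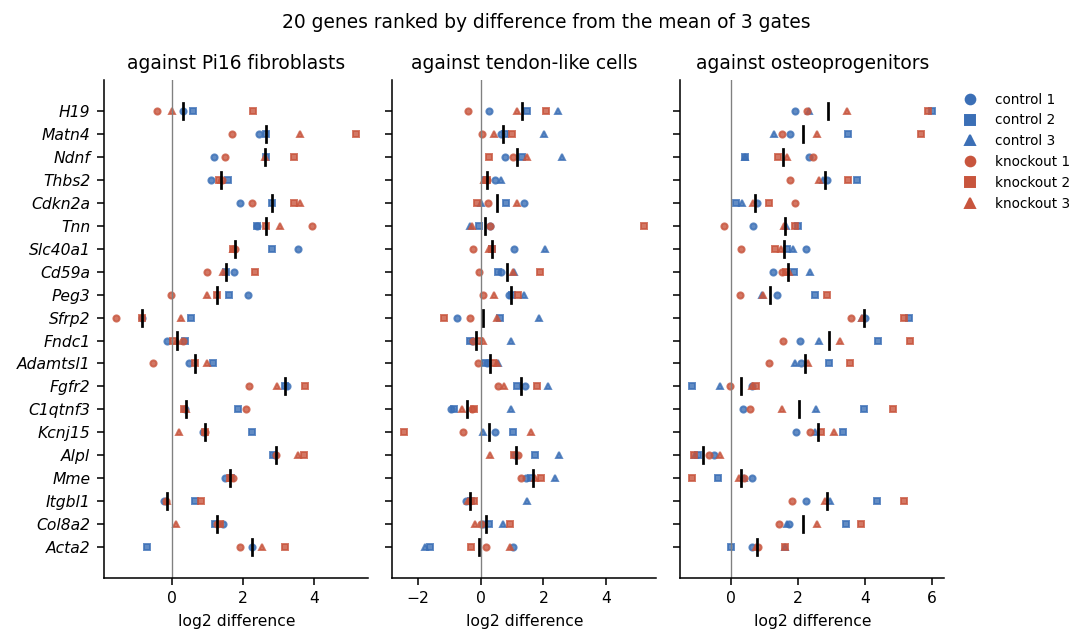
Within-library log2 difference (x axis) of the 20 genes with the highest median difference from the mean of 3 other stromal gates, shown against each gate, with 1 point per library and the median as a black bar. The medians of *Thbs2*, *Tnn*, *Fndc1* and *Col8a2* sit near 0 against tendon-like cells, although *Tnn* is at 5.22 in knockout 2. *Alpl* lies below 0 against osteoprogenitors.

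Osteogenic and chondrogenic lists placed the members between the other gates. Of 8 osteogenic genes compared, 8 were above *Pi16* fibroblasts, 6 above tendon-like cells and 1 above osteoprogenitors, with medians of 1.70, 0.83 and -1.04 beside 0.03, 0.02 and 0.05 over all genes. *Runx2* and *Sp7*, transcription factors of the osteoblast lineage, were at 75.7 to 145 CPM and 13.2 to 72.9 CPM, while the osteocyte gene *Mepe* had 0 UMIs. *Ibsp* (bone sialoprotein) was at 4090, 1788 and 2824 CPM and 13923, 1316 and 6863 CPM. It was uneven among members, since the median member of control 2 held 1 *Ibsp* UMI and the highest 502. Of 13 chondrogenic genes compared, 13, 12 and 3 were above *Pi16* fibroblasts, tendon-like cells and osteoprogenitors. *Sox9* and *Acan* (aggrecan) were above all 3, with *Sox9* at 108 to 572 CPM. The whole chondrogenic list summed to 19381, 7655 and 7457 CPM in the members of control 1 to 3. It summed to 14013, 2478 and 17004 CPM in those of knockout 1 to 3. Endothelial barcodes held 18459, 2904 and 1287 CPM and 11107, 542 and 13907 CPM in the same order. Of the osteogenic list, endothelial barcodes of knockout 2 held 13621 CPM and the members 18051 CPM, and those of the other libraries less. The part of free RNA in these sums was not tested.

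The cartilage collagen gene *Col2a1* was also counted in endothelial and immune barcodes. *Col2a1* was at 7286, 1702 and 896 CPM in the members of the control libraries and 4991, 10.9 and 4684 CPM in those of the knockout libraries. Endothelial barcodes held 9027, 1382, 406 and 4691, 57.6, 6109 CPM of it in the same order. The members were below endothelial barcodes in 3 of 6 libraries, with a median ratio of 0.936. Immune barcodes held 2192, 987 and 170 CPM and 2221, 14.3 and 2463 CPM, which was below the members in all libraries but knockout 2. Single members held up to 5355 *Col2a1* UMIs in control 1 and 4280 in knockout 1, where that member had 33.6% of them. The part of free RNA in these values was not tested.

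Contractile genes were higher than in *Pi16* fibroblasts for 6 of 6 genes, with a median log2 difference of 1.35, and close to tendon-like cells at 0.08. Inflammatory genes summed to 596 CPM in knockout 2 and to 4106 CPM in knockout 1, the lowest and the highest library. *Saa3*, an acute-phase protein, was at 1964 CPM in control 3 and 1484 CPM in knockout 1 and at 9.22 CPM or less in the other 4 libraries. A single member held 42.2% of its UMIs in control 3 and 26.3% in knockout 1. The 10 endothelial markers summed to 52.1 to 111 CPM, the 12 muscle markers to 11.8 to 23.7 CPM and the 10 pericyte markers to 114 to 474 CPM. Markers of blood cells are given with the comparison of groups.

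Members that entered through *Penk* differed from those that entered through *Megf6*. This split was chosen after the values were seen and is a description. It used the 5 libraries with at least 10 members of both kinds, leaving out knockout 1, where 6 members had *Penk* alone. Of 3221 genes compared, 240 (7.45%) were higher in *Penk* members in 5 of 5 libraries and 337 (10.5%) were lower, in log2(CPM + 10). The median UMIs per member were 8268 to 24836 in the *Penk* members and 11204 to 31422 in the *Megf6* members of these libraries.

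*Cygb*, *Col14a1*, *Mfap5*, *Igf1*, *Sfrp2* and *Ly6a* were higher in *Penk* members in 5 of 5 libraries. *Cygb* (cytoglobin), a globin of fibroblasts, was at 34.6, 107 and 37.4 CPM in the *Penk* members of control 1 to 3 and 145 and 113 CPM in those of knockout 2 and 3. In *Megf6* members it was at 9.87, 14.9 and 21.9 CPM and 10.7 and 9.87 CPM, so that the values did not overlap. *Col14a1*, a fibril-associated collagen of soft connective tissue, was 1.79 higher on the log2 scale (475 ± 163 against 177 ± 135 CPM, SD, n = 5), and *Mfap5* was 1.71 higher. *Igf1* was at 1313 ± 578 against 622 ± 411 CPM, *Sfrp2* at 450 ± 105 against 182 ± 57.6 CPM, and *Ly6a* at 513 ± 510 against 115 ± 89.2 CPM. Of 13 growth factor genes compared, 7 were higher in *Penk* members in 5 of 5 libraries, beside 7.45% of all genes, and 1 was lower. Of 18 elastic fibre genes 5 were higher and 0 were lower. Of 15 chondrogenic genes, 14 had a higher median in *Penk* members, but 0 were higher in 5 of 5 libraries. The median over that list was 0.72, beside -0.02 over all genes. Of 4 genes of *Lepr* marrow stroma, 4 had a higher median, and 1 was higher in 5 of 5 libraries. Of 20 collagen genes 4 were higher and 4 lower, beside 7.45% and 10.5% of all genes.

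*Megf6* members held more of *Mmp13*, of contractile genes and of some osteogenic genes. *Mmp13* (collagenase 3) was at 409 ± 373 CPM in *Penk* members and at 1320 ± 204 CPM in *Megf6* members (SD, n = 5), but of 13 genes of matrix proteases and their inhibitors 2 were higher and 1 was lower in *Megf6* members in every library compared. *Acta2*, *Tagln*, *Tpm1* and *Tpm2*, 4 of 6 contractile genes, were higher in *Megf6* members in 5 of 5 libraries, beside 10.5% of all genes. *Alpl* was at 584 ± 325 against 963 ± 312 CPM and *Fgfr2* at 79.8 ± 22.2 against 200 ± 67.3 CPM, and *Runx2* also was higher in *Megf6* members in 5 of 5 libraries. In all, 3 of 8 osteogenic genes were. *Mme*, the enkephalin-cleaving peptidase, was lower in the *Penk* members in 5 of 5 libraries. *Aspn*, *Ogn* and *Matn4* went both ways.

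**Figure D4:**
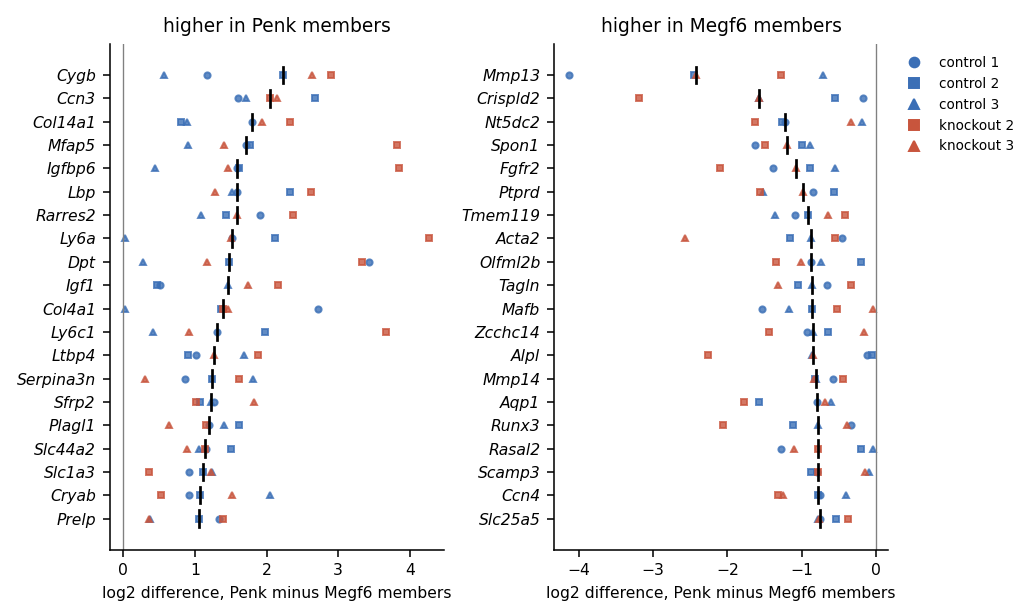
Log2 difference (x axis) between members with at least 3 *Penk* UMIs only and members with at least 3 *Megf6* UMIs only, 1 point per library and the median as a black bar, for the 20 genes of each direction that differ the same way in all 5 libraries. *Cygb* leads the first set and *Mmp13* the second.

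The knockout and control libraries were then compared. The targeted gene *Piezo1*, a mechanically gated cation channel, was at 47.5, 28.3 and 28.2 CPM in the members of control 1 to 3 and 58.8, 23.4 and 35.01 CPM in those of knockout 1 to 3. The groups overlapped, with a log2 fold change of 0.24 ± 0.34 (SE, n = 3 per group, edgeR adjusted p = 1.00). Libraries that tag the 3′ end count transcripts that have lost floxed exons too, so *Piezo1* checks no label here.

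The share of members did not separate the groups. It was 5.42% (95% Wilson interval 4.54 to 6.46), 1.59% (1.32 to 1.93) and 1.58% (1.31 to 1.90) of filtered barcodes in control 1 to 3. It was 3.72% (2.91 to 4.75), 0.671% (0.509 to 0.883) and 1.83% (1.52 to 2.20) in knockout 1 to 3. The group values were 2.86 ± 2.21% and 2.07 ± 1.54% (SD, n = 3), with a two-sided exact permutation p of 0.7, where 0.1 is the smallest these libraries allow. The difference of -0.790 percentage points became 0.487 without control 1, -0.0884 without knockout 2, -0.669 without knockout 3 and -1.61 without knockout 1. The rule sets absolute UMI minima and limits, both of which depend on depth. With every barcode thinned to 3000 UMIs the shares were 1.54, 0.782 and 0.351% against 0.610, 0.241 and 0.409% (exact permutation p = 0.3). The thinned rule took 33, 50 and 24 barcodes in control 1 to 3 and 10, 18 and 25 in knockout 1 to 3, of which 12, 24 and 12 and 2, 12 and 19 were members, so it describes a partly different set of cells.

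No gene passed the edgeR test between groups with all libraries used and low counts filtered. Of 10247 genes tested with edgeR, 0 (0%) had an adjusted p under 0.05, 176 (1.72%) had an unadjusted p under 0.05 (104 higher, 1.01%, and 72 lower, 0.703%), and DESeq2 called 2 of the same 10247 genes, *Slc40a1* (lower, adjusted p = 0.014) and *Gpnmb* (higher). Without the low-count filter DESeq2 called *Slc40a1* alone among 22712 genes, and edgeR called 53 (40 higher and 13 lower). Among these 53 the smallest adjusted p was that of *Xist*, found almost only in knockout 3. With replicate 1 of both groups left out, edgeR called 2 genes, *Rps3a3* and *Serpina3n*, both lower. Without knockout 3 the adjusted count stayed at 0. Without knockout 1 it was also 0, but 840 of 10454 genes had an unadjusted p under 0.05. In simulated counts of this design, the same test recovered 85.7% of the genes given a log2 change of 2 and 10.9% of those given 1. It made 10 false calls, with 9881 genes tested. The simulated libraries varied independently of each other. In the real counts, control 1 correlated at 0.959 with knockout 1 and at 0.901 and 0.888 with control 2 and 3. Recovery in the real counts can therefore differ from these shares and was not measured. Changes of 1 or less were seldom within reach even in the simulation. The groups did not overlap for 253 genes that were higher (2.47%) and 290 that were lower (2.83%) in the knockout. Of the 20 assignments of libraries to groups, 1 puts the knockout above every control library and 1 puts it below. Both shares of genes are under 1 in 20.

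The genes with the smallest p among those not overlapping and with at least 50 CPM are given with their values. None passed the threshold in edgeR with low counts filtered. Without that filter, *Slc40a1*, *Clu*, *Zim1* and *Rspo3* passed it (edgeR adjusted p = 0.00123, 0.00198, 0.00793 and 0.00123). The smallest adjusted p of that fit was for *Xist* (edgeR, 4.93e-59), which was found almost only in knockout 3. That fit thus also called a gene carried by a single library. *Slc40a1* was at 403, 178 and 207 CPM in control 1 to 3 and 81.5, 71.7 and 86.4 CPM in knockout 1 to 3, a log2 fold change of -1.67 ± 0.33 (edgeR unadjusted p = 0.000474, adjusted p = 1.00). Control 1 was far above the other libraries, and all 3 knockout libraries were lower than every control library. *Clu* (clusterin), a secreted chaperone, was at 188, 231 and 255 CPM and 57.2, 51.5 and 106 CPM, with a log2 fold change of -1.62 ± 0.36. *Tenm3*, *Zim1* and *Smoc1* had log2 fold changes of -1.07, -1.40 and -1.07. Under the thinned rule, with its partly different cells, these were -0.31, -0.21 and 0.059, and that of *Clu* was -0.74.

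In the other direction, *Rspo3*, a secreted amplifier of WNT signals, was at 39.5, 32.9 and 57.8 CPM in control 1 to 3 and 61.6, 225 and 126 CPM in knockout 1 to 3, a log2 fold change of 1.65 ± 0.45 (edgeR unadjusted p = 0.00406, adjusted p = 1.00). Knockout 1 lay just above the highest control library. *Omd*, the neighbour of *Aspn* and *Ogn*, was at 158, 93.5 and 139 CPM and 208, 253 and 411 CPM, a log2 fold change of 1.20 ± 0.35, which was 0.79 without knockout 3. *Cxcl12*, a chemokine of stromal niches, was at 153, 177 and 198 CPM and 464, 703 and 211 CPM, and 1 member held 39.6% of its UMIs in knockout 1. *Gstm2* and *Mpp6* had log2 fold changes of 0.82 and 0.54. Under the thinned rule that of *Gstm2* was 0.39, and with minima of 5 and 20 UMIs for the marker pairs that of *Omd* was 0.63.

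*Apoe*, which encodes a lipid carrier protein, was at 153, 163 and 123 CPM in the control libraries and 129, 357 and 345 CPM in the knockout libraries, a log2 fold change of 0.94 ± 0.39 (edgeR unadjusted p = 0.0383, adjusted p = 1.00). The groups overlapped, because knockout 1 lay within the control range, and the log2 fold change was 0.68 without knockout 3, 0.63 without members of high doublet score and 0.53 in *Megf6* members alone.

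No gene list held a gene past the adjusted threshold in edgeR with low counts filtered. Apart from macrophage markers, none held more than 2 genes in 1 direction at an unadjusted p under 0.05. These counts stand beside 1.01% higher and 0.703% lower over all genes. Among the proteoglycan genes, *Omd* was higher and *Podn* lower at such a p, while the levels of *Aspn* and *Ogn* were set by the rule. Of 22 collagen genes 2, *Col15a1* and *Col24a1*, were lower at an unadjusted p under 0.05, and the median log2 fold change was -0.26 beside 0.01 over all genes. Of 24 WNT genes *Rspo3* was higher and *Dkk2*, a WNT inhibitor, lower. *Eln* was the 1 of 21 elastic fibre genes with such a p, at 19.7, 21.7 and 9.64 CPM in the control libraries and 31.0, 40.5 and 35.6 CPM in the knockout libraries, which did not overlap. None of 15 osteogenic, 9 contractile or 17 inflammatory genes had an unadjusted p under 0.05. Collagen genes summed to 93929, 74402 and 90457 CPM in the control libraries and 103296, 49092 and 56183 CPM in the knockout libraries, so that knockout 2 and 3 were low and knockout 1 was the highest of all.

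The summed macrophage markers were higher in knockout 2 and 3 than in any control library, and knockout 1 lay within the control range. All 12 were detected, and of the 10 tested 9 were higher in the knockout at an unadjusted p under 0.05, beside 1.01% of all genes, with 0 past the adjusted threshold and 2, *C1qa* and *C1qc*, not overlapping between groups. Their sum was 149, 230 and 205 CPM in control 1 to 3 and 191, 883 and 541 CPM in knockout 1 to 3, and *Lyz2* was the most abundant at a mean of 121 CPM. In knockout 2, 1 member held 29.9% of these UMIs. Immune barcodes summed to 17681 to 20030 CPM for the same list. Endothelial barcodes of knockout 2 also had more of it, at 1117 CPM, than those of the other 5 libraries, at 214 to 562 CPM. Tendon-like cells held 165, 211 and 278 CPM in control 1 to 3 and 216, 582 and 517 CPM in knockout 1 to 3. *Pi16* fibroblasts held 167 and 174 CPM in control 1 and 2 and 1279, 699 and 265 CPM in knockout 1 to 3, and osteoprogenitors were highest in knockout 2 at 751 CPM. The list was thus higher in knockout 2 than in any control library in all 3 stromal gates and in endothelial barcodes. Neutrophil markers summed to 92.6, 1041 and 306 CPM and 204, 1241 and 1937 CPM in the members. In knockout 3 they made up 7.09% of the UMIs of the highest member and 0.077% of those of the median member. The part of such RNA in the values of *Apoe* and other genes was not tested.

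**Figure D5:**
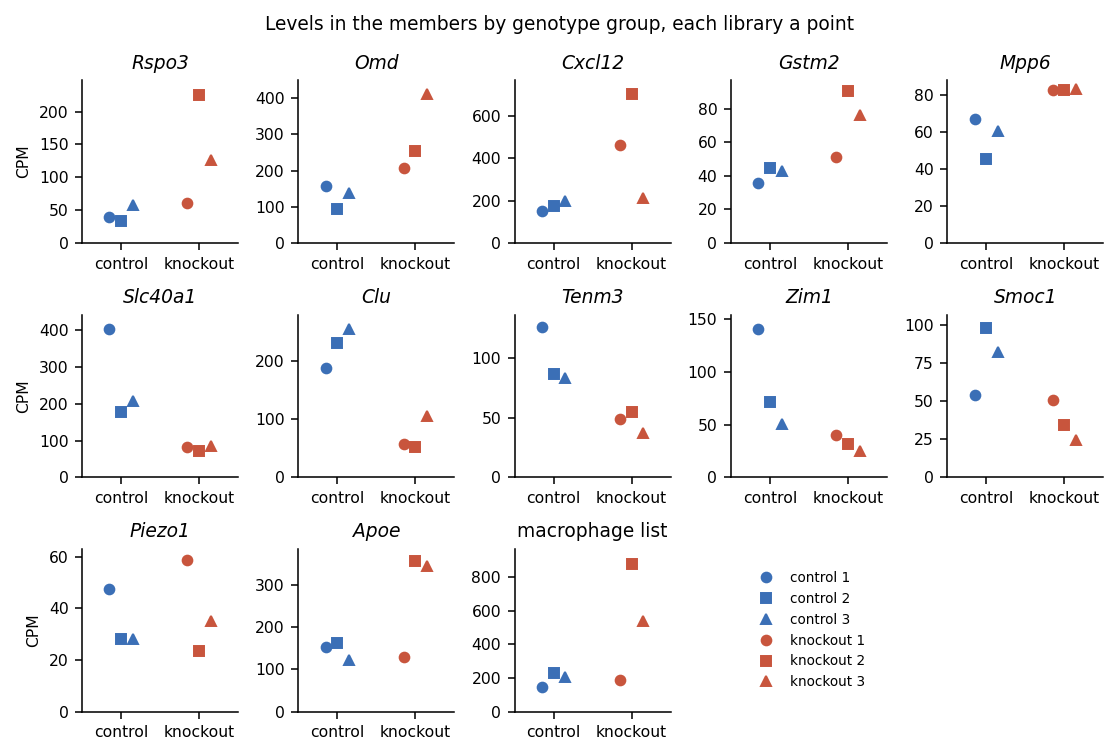
CPM in the members (y axis from 0) of the 10 named genes, *Piezo1*, *Apoe* and the summed macrophage list, 1 point per library. *Slc40a1* and *Clu* are lower in all 3 knockout libraries, whereas *Apoe* and the macrophage list are raised in knockout 2 and 3 and not in knockout 1.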

How the data were processed

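Cells of fracture calluses were profiled with 10x Genomics 3′ chemistry in 6 libraries, 3 per group. The authors deposited unnormalized UMI counts per gene and barcode, which the file headers credit to Cell Ranger 6.1.1 for replicate 1 of both groups and 6.1.2 for the others. The submitters' processing notes name GRCm38. Replicate 3 of both groups used another gene list, so the 52081 shared gene identifiers were used. Members, gates and gene lists were chosen with earlier results of these data known. UMIs were summed per library over members and tested with edgeR 4.0.16 (quasi-likelihood, TMM, low counts filtered, Benjamini-Hochberg adjustment) in R 4.3.3. Shares were compared by exact permutation of the 20 assignments of libraries. The test was checked on simulated counts. Scanpy 1.11.5 scored doublets, and members with high scores were kept. Wilson intervals cover counting error only.

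Genes were named if they were among the highest or had the smallest p of a list, among the 20 highest against the other gates, or among the 5 smallest p per direction with groups not overlapping and at least 50 CPM. *Piezo1* and *Apoe* were always named. Genes of the *Penk* against *Megf6* split, and *Col4a1*, *Col4a2*, *Col5a3*, *Col11a1*, *Lum*, *Dcn*, *Fbn1*, *Mfap5*, *Eln*, *Ly6a*, *Thy1*, *Gli1*, *Lepr*, *Sox9*, *Acan*, *Igf2*, *Runx2*, *Sp7*, *Mepe*, *Gpnmb*, *Xist* and *Ddx3y* were chosen after their values were seen. Alternatives included DESeq2 1.42.0, other gates and filters, and leaving out libraries.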

Additional observations from a re-analysis of the deposited data

How the results depend on the processing

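The share of members kept its direction, lower in the knockout, under 14 of 15 alternatives. Among the 14 is the replicate block, whose difference equals the main one by construction. The exception was leaving out control 1, and leaving out each library in turn gave differences from -1.61 to 0.487 percentage points. The count of genes past the adjusted threshold was 0 in each fit that left out a single library. It was 1 (*Slc40a1*) with DESeq2 on all 22712 detected genes, which changed both the test and the filter, and 2 (*Gpnmb* and *Slc40a1*) with DESeq2 on the filtered genes, an alternative added after seeing the data. It was 2 (*Rps3a3* and *Serpina3n*, both lower) without replicate 1 of both groups, also chosen after seeing the data. It was 53 (40 higher and 13 lower) with no filter on low counts, where *Rspo3*, *Slc40a1*, *Clu* and *Zim1* passed. *Xist*, found almost only in knockout 3, had the smallest adjusted p of that fit. The count at an unadjusted p under 0.05 was 840 without knockout 1 and 645 without replicate 1 of both groups, beside 176. The rule on thinned barcodes took a partly different set of cells. There *Gstm2* had a log2 fold change of 0.39, *Smoc1* 0.059, *Clu* -0.74, *Tenm3* -0.31 and *Zim1* -0.21. Under the main rule, *Piezo1* had a log2 fold change of -0.17 to 0.48 when a library was left out. Its lowest value was without knockout 1 and its highest without control 1. The cause of these changes was not tested. The median difference of matricellular genes from the other gates was 0.28 and ranged from 0.11 (without control 3) to 0.41 when a library was left out. Libraries with the same replicate number correlated in their deviations at 0.57, 0.095 and 0.14. Control 2 with knockout 3 was at 0.32 and control 3 with knockout 2 at 0.26, so the numbers were not taken as pairs. Replicate 1 of each group correlated with replicates 2 and 3 of the other group at -0.37 to -0.29. Replicate 1 of both groups thus varied together, and the main test has no term for this. A replicate block leaves the share difference at -0.790 percentage points by construction. Exact sign flips of the differences between same-numbered libraries gave p = 0.5, and the smallest p that test allows is above 0.1. With the block edgeR called 0 genes, with 272 at an unadjusted p under 0.05. Absolute UMI minima and 50 to 116 members per library limit what can be seen.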
